A study of Mus musculus with 8 samples.

Results

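The 4 mouse Hox gene clusters were followed through reprogramming for 5-hydroxymethylcytosine (5hmC), the oxidised form of 5-methylcytosine made by the TET enzymes. They were defined by position and not by any measured value, as 4 windows in mm9 coordinates: HoxA at chr6:52090001-52225000, HoxB at chr11:96045001-96240000, HoxC at chr15:102740001-102880000 and HoxD at chr2:74495001-74615000. Every deposited 5hmC peak overlapping a window was taken, which gave 57 of the 684512 peaks of the series. The windows stand for 38 listed Hox genes, 10 in HoxA, 10 in HoxB, 9 in HoxC and 9 in HoxD.

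The study profiled 8 samples by chemical capture of 5hmC, with 1 library in each group and no replicate. They were mouse embryonic fibroblasts (MEF), the starting cells, then cells in reprogramming at D1, D3 and D5 (D read as day) with the OSNK factors or with the OySyNyK factors, and induced pluripotent stem cells (iPSC), whose title names the OySyNyK factors. OSNK is known from the study as Oct4, Sox2, Nanog and Klf4, and OySyNyK as the same set with the first 3 fused to a transactivation domain of YAP. Per the labels' protocols the fibroblasts were OG2-MEFs, known as fibroblasts carrying a green fluorescent reporter of Oct4, and vitamin C and LIF were added for iPSC generation. The iPSC were kept on mitomycin C-treated MEF feeder cells, and the share of feeder DNA in the iPSC library was not tested. Peak lists carry no expression values, so the labelled cell types were not checked against marker genes.

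Hox genes encode homeodomain transcription factors that give cells their position along the body axis. Within each cluster the genes lie in the order in which they act from head to tail, from group 1 at one end to group 13 at the other. The clusters are dense in CpG islands that are mostly unmethylated and, in pluripotent cells, held silent by Polycomb complexes, whereas fibroblasts keep part of the Hox code of their site of origin. 5hmC needs a methylated cytosine to form, and most of it in mammalian DNA lies at CpG sites.

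The promoters shown here are those of the outermost genes of HoxA and HoxD, chosen because no library had a peak in the segment of either cluster nearest to group 13. They are RefSeq promoters in build GRCm38.p6, 250 bases before to 50 bases after the start, 5′ to 3′ on the gene's strand, with each CpG in capitals. Hoxa13, which shapes the distal limb and the urogenital tract, is on the minus strand at chr6:52260831-52261130 and its promoter has 45 CpG sites. Hoxd13, which patterns the digits, is on the plus strand at chr2:74667975-74668274 and its promoter has 37.
Hoxa13: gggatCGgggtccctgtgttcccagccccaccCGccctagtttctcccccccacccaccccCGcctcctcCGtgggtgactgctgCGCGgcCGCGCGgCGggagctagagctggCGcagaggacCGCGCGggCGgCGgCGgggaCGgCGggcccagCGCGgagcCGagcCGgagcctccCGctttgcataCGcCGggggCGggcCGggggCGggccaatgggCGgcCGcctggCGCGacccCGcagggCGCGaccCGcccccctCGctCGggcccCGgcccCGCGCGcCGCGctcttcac
Hoxd13: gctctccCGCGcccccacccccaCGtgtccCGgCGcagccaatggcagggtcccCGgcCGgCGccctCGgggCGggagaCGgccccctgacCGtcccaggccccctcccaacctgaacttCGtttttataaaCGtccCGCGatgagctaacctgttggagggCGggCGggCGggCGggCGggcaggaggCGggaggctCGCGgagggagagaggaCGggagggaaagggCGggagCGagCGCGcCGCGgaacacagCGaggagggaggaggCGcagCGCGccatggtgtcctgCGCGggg
The table held 24 promoters of 22 of the 38 genes. Most were of HoxA and HoxD, with only Hoxb1, Hoxb4 and Hoxb8 from HoxB and Hoxc4 from HoxC. The median of the 24 was 14.5 CpG sites in 300 bases, against 7 over all 32851 such promoters. The 2 promoters shown had the highest counts of the 24. The lowest count among them was 4, for Hoxa9, Hoxd4 and 1 of the 2 Hoxd11 promoters. The CpG sites were counted in GRCm38, and the peaks lie in another assembly, so no peak was placed on a promoter or on a single gene.

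On average, 5hmC peaks covered less of each of the 4 clusters than of the whole libraries. In every library they covered less of HoxA, HoxB and HoxC than of the DNA beside them. Over the 8 libraries, mean peak cover, the share of the window's bases lying in a peak, was 0.533% in HoxA, 1.54% in HoxB, 0.688% in HoxC and 0.706% in HoxD. The mean cover of the whole libraries was 2.72% of the sequence spanned by peaks. The 4 clusters together therefore had 0.345 times the library mean. Cover was at least 2-fold below that mean in HoxA, HoxC and HoxD, 3 of 4 clusters, and in 56% of all genome windows of the same 4 lengths. The median genome window of the same length had 0.888% for HoxA, 0.992% for HoxB, 0.883% for HoxC and 0.864% for HoxD. HoxB was above this median, and HoxA, HoxC and HoxD were below it. Of all windows of its own length, 43.7% had a mean cover at or below that of HoxA, 56.8% for HoxB, 46.7% for HoxC and 47.4% for HoxD. Those windows include 18.8% to 23.4% with no peak in any library. Among windows with a peak in at least 1 library, the shares at or below were 27.5% for HoxA, 46.8% for HoxB, 31.6% for HoxC and 31.3% for HoxD.

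The neighbouring DNA was on average richer in peaks, except on the group 13 side of HoxD, where the flank had no peak in any library. Flanks of each cluster's own length on both sides had a mean cover of 2.87% for HoxA, 3.77% for HoxB, 3.38% for HoxC and 1.38% for HoxD. With both flanks pooled, HoxA, HoxB and HoxC were below them in each of the 8 libraries. HoxD was below its pooled flanks in 5, the exceptions being MEF and both D5 libraries. Against the group 13 side flank alone, HoxA was higher at OSNK D1 (2.51% against 1.38%) and HoxC at OySyNyK D3 (0.408% against 0.349%). HoxC and that flank were both empty at OSNK D5 and OySyNyK D5. Mean cover was at least 2-fold below the flanks in HoxA, HoxB and HoxC, 3 of 4 clusters, against 33.5% of the 63007 genome windows, of 73840, that have a window on each side and a peak in at least 1 of those neighbours. With windows narrowed by 10 kb at each end HoxB was 0.528 times its flanks, and with only the flank at lower coordinates HoxC was 0.554 times it, so both lost the 2-fold call there. The clusters had 0.186, 0.409, 0.204 and 0.512 times their flanks' mean cover, in the order HoxA to HoxD. Over the alternatives these ratios ran from 0 to 0.338 for HoxA, 0.0743 to 0.528 for HoxB, 0.109 to 0.554 for HoxC and 0.256 to 0.906 for HoxD. HoxD was close to its flanks, at 0.906, with narrowed windows, and below 0.5 in 5 of its 7 alternatives.

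**Figure D1:**
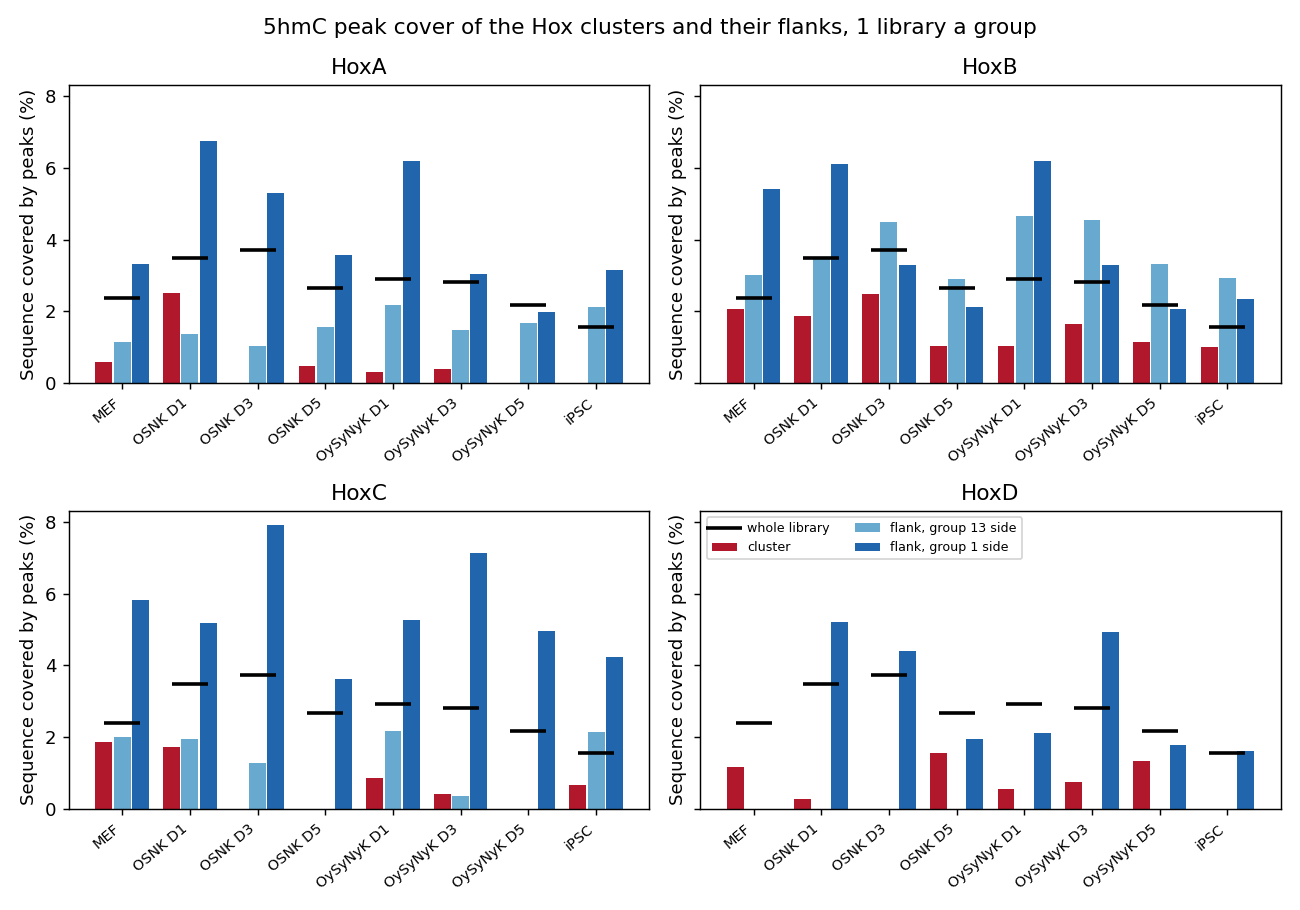
Share of sequence covered by 5hmC peaks (%, vertical axis) in each cluster, in its flank on the group 13 side and in its flank on the group 1 side (group 4 side for HoxC), for the 8 libraries (horizontal axis, 1 library a group). Black dashes are the cover of the whole library. The red bars of the clusters stay at or below 2.51%, while the flanks reach 7.91%.

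Peak numbers were also lower than in the flanks. The 4 windows, 590 kb in all, held 9 MEF peaks and 6 iPSC peaks. The OSNK lists had 13 peaks there at D1, 4 at D3 and 6 at D5, and the OySyNyK lists 6, 8 and 5. The flanks held 38 MEF peaks, 42 iPSC peaks, 34 to 61 peaks in the OSNK lists and 30 to 65 in the OySyNyK lists. Per kb, the clusters had between 0.185 (OySyNyK D1) and 0.474 (MEF) times as many peaks as the flanks. The exact 95% interval of this ratio, which covers counting error only, lay below 1 in all 8 libraries, narrowly so in MEF (0.201 to 0.997). Relative to the density of the whole library the ratio was between 0.2 at OSNK D3 (0.0544 to 0.512) and 0.612 in MEF (0.280 to 1.16). That interval reached above 1 in MEF and in iPSC (0.179 to 1.06).

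**Figure D2:**
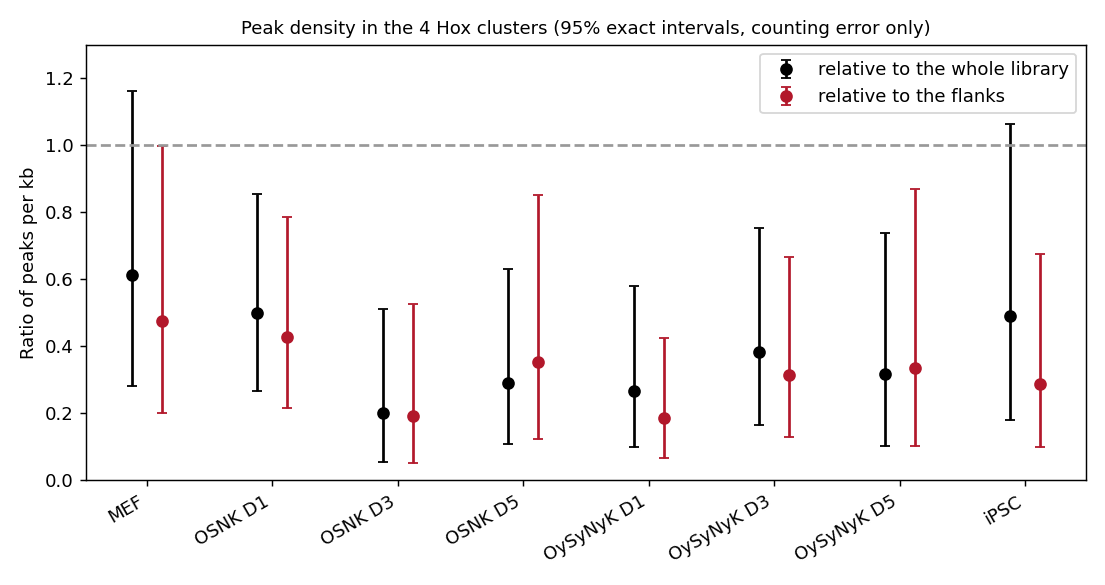
Peaks per kb in the 4 clusters together, as a ratio (vertical axis) to the whole library (black) and to the flanks (red), for each library. Bars are exact 95% intervals for counting error only and the dashed line is a ratio of 1. The red points lie between 0.185 and 0.474.

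The peaks that were called in the clusters were weak. The score of a peak, as deposited, is in MACS -10 times the log10 of its p-value, and every list began at 50. The median over the 57 peaks was 71.5 and the highest score was 186. Only 13 of them, 22.8%, scored above the median of their own library, against 45.7% of the 363 flank peaks. A score of at least 100 was reached by 6, or 10.5%, against 37.2% of the flank peaks and 41.8% of all peaks of the series. None of the 8 HoxA peaks was among these 6. HoxB, HoxC and HoxD had 2 each. Over whole libraries the median score was 103 in MEF and 71.04 in iPSC, and 1 of the 9 MEF peaks and 3 of the 6 iPSC peaks of the clusters were above it.

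**Figure D3:**
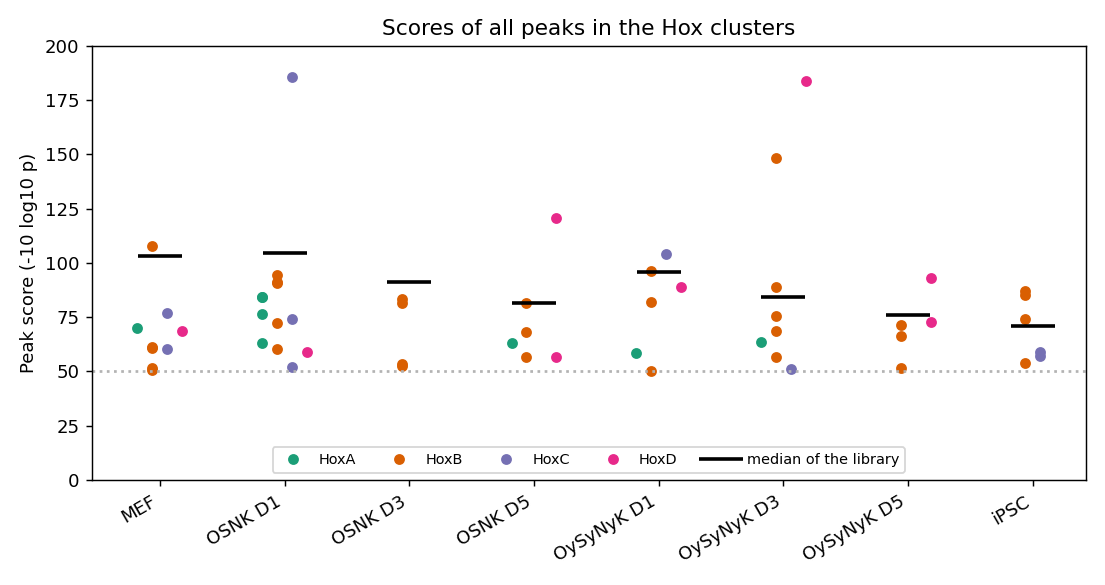
Score of every peak in the clusters (vertical axis, -10 log10 p), by library and coloured by cluster, with the median of the whole library as a black dash and the lowest score of the lists, 50, as a dotted line. Most points lie between 50 and 100, and the highest are 186 in HoxC at OSNK D1 and 184 in HoxD at OySyNyK D3.

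HoxA, which holds Hoxa2 to Hoxa13 in this list, was nearly empty. Its cover was 0.583% in MEF (1 peak), 2.51% at OSNK D1 (4 peaks), 0% at OSNK D3 and 0.467% at OSNK D5 (1 peak). With OySyNyK it was 0.319% at D1 and 0.389% at D3, from 1 peak each, and 0% at D5, and iPSC also had none. Genome windows of HoxA's length had no peak in 38.2% of cases at OSNK D3, 47.7% at OySyNyK D5 and 49.9% in iPSC. OSNK D1, the longest list with 116302 peaks, had the highest cover, and the 7 other libraries lay between 0% and 0.583%. Of genome windows of HoxA's length, 58.6% had a cover at or below that of HoxA at OSNK D1. None of its 4 peaks there was left with a score of at least 100. None was left either when all lists were cut to equal numbers of peaks, best scores first. The 8 peaks fell into 5 separate regions. The strongest, at chr6:52144344-52145267, had a score of 84.5 at OSNK D1, was seen again with 63.0 at OSNK D5, and was in no other library. The largest fall from MEF to iPSC was at chr6:52146595-52147454, with scores of 70.0 in MEF, 84.5 at OSNK D1 and 63.6 at OySyNyK D3. The remaining 3 regions were each found in 1 intermediate on D1 and nowhere else.

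HoxB, the longest window and the only one with a peak in every library, had 32 of the 57 peaks. Cover was 2.07% in MEF and 1.01% in iPSC. The OSNK days had 1.88%, 2.49% and 1.05%, and the OySyNyK days 1.05%, 1.65% and 1.14%. MEF, OSNK D1 and OSNK D3 were the highest, and the other 5 lay between 1.01% and 1.65%. The 32 peaks formed 14 regions, 6 of them seen in a single library. No Hox region was in more than 5 libraries, and both that reached 5 were here. One, chr11:96162720-96164264, scored 108 in MEF, 94.7 at OSNK D1, 81.7 at OSNK D3, 96.3 at OySyNyK D1 and 89.0 at OySyNyK D3. It was in neither D5 library nor in iPSC. A second region in 5 libraries, chr11:96088786-96089509, scored 60.9 in MEF, 68.1 at OSNK D5, 56.7 and 66.3 at OySyNyK D3 and D5, and 85.1 in iPSC. It was in neither D1 library and not at OSNK D3.

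Other HoxB regions were in neither end state. The one with the highest score, chr11:96205118-96206206, was in neither MEF nor iPSC and in neither D1 library. It scored 53.5 and 81.7 at OSNK D3 and D5 and 148 and 51.4 at OySyNyK D3 and D5. The region at chr11:96194699-96195533 scored 90.7 at OSNK D1 and 82.2 and 75.6 at OySyNyK D1 and D3. The largest fall from MEF to iPSC was at chr11:96116410-96117359, 950 bp in MEF alone with a score of 50.8, at the edge of detection. The largest rise was at chr11:96073640-96074320, 681 bp in iPSC alone with a score of 74.3. In the same group 13 segment, on the side of Ttll6, a tubulin-modifying enzyme gene, iPSC had 2 more peaks found in no other library, with scores of 87.2 and 53.9.

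HoxC, the cluster of Hoxc4 to Hoxc13, was empty in 3 libraries. Cover was 1.85% in MEF, 1.72% at OSNK D1 and 0% at OSNK D3 and D5. With OySyNyK it was 0.865% at D1, 0.408% at D3 and 0% at D5, and iPSC had 0.66%. Of all genome windows of HoxC's length, 37.7% had no peak at OSNK D3, 39.9% at OSNK D5 and 47.3% at OySyNyK D5. The 9 peaks formed 5 regions. The strongest peak of all 4 clusters lay here, at chr15:102871228-102872591. It scored 60.5 in MEF, 186 at OSNK D1 and 104 at OySyNyK D1 and was in no later library, and its 1241 bp in MEF made it the largest fall to iPSC in the cluster. The region at chr15:102832463-102833815 scored 77.1 in MEF, 52.1 at OSNK D1 and 57.3 in iPSC, and was 1 of only 2 Hox regions present in both end states. The largest rise to iPSC was a weak 399-bp peak at chr15:102748024-102748422, with a score of 58.9 in iPSC alone.

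HoxD, the cluster of Hoxd1 to Hoxd13, had 1.18% cover in MEF and none in iPSC. The OSNK days had 0.281%, 0% and 1.55%, and the OySyNyK days 0.559%, 0.74% and 1.33%. It was higher at D5 than at D1 with both methods, on 1 or 2 peaks a library. Among all genome windows of HoxD's length, 51.4% had no peak in iPSC and 39.8% none at OSNK D3. The 8 HoxD peaks formed 4 regions. The region at chr2:74561071-74561980 was absent in MEF and iPSC. It scored 121 at OSNK D5, and 88.9, 184 and 93.0 on the OySyNyK days in turn. It was the only Hox region present on all 3 days of a method, and it was also in 1 OSNK library. The largest fall from MEF to iPSC, 1413 bp, was at chr2:74584306-74585718, with scores of 68.6 in MEF and 72.7 at OySyNyK D5.

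**Figure D4:**
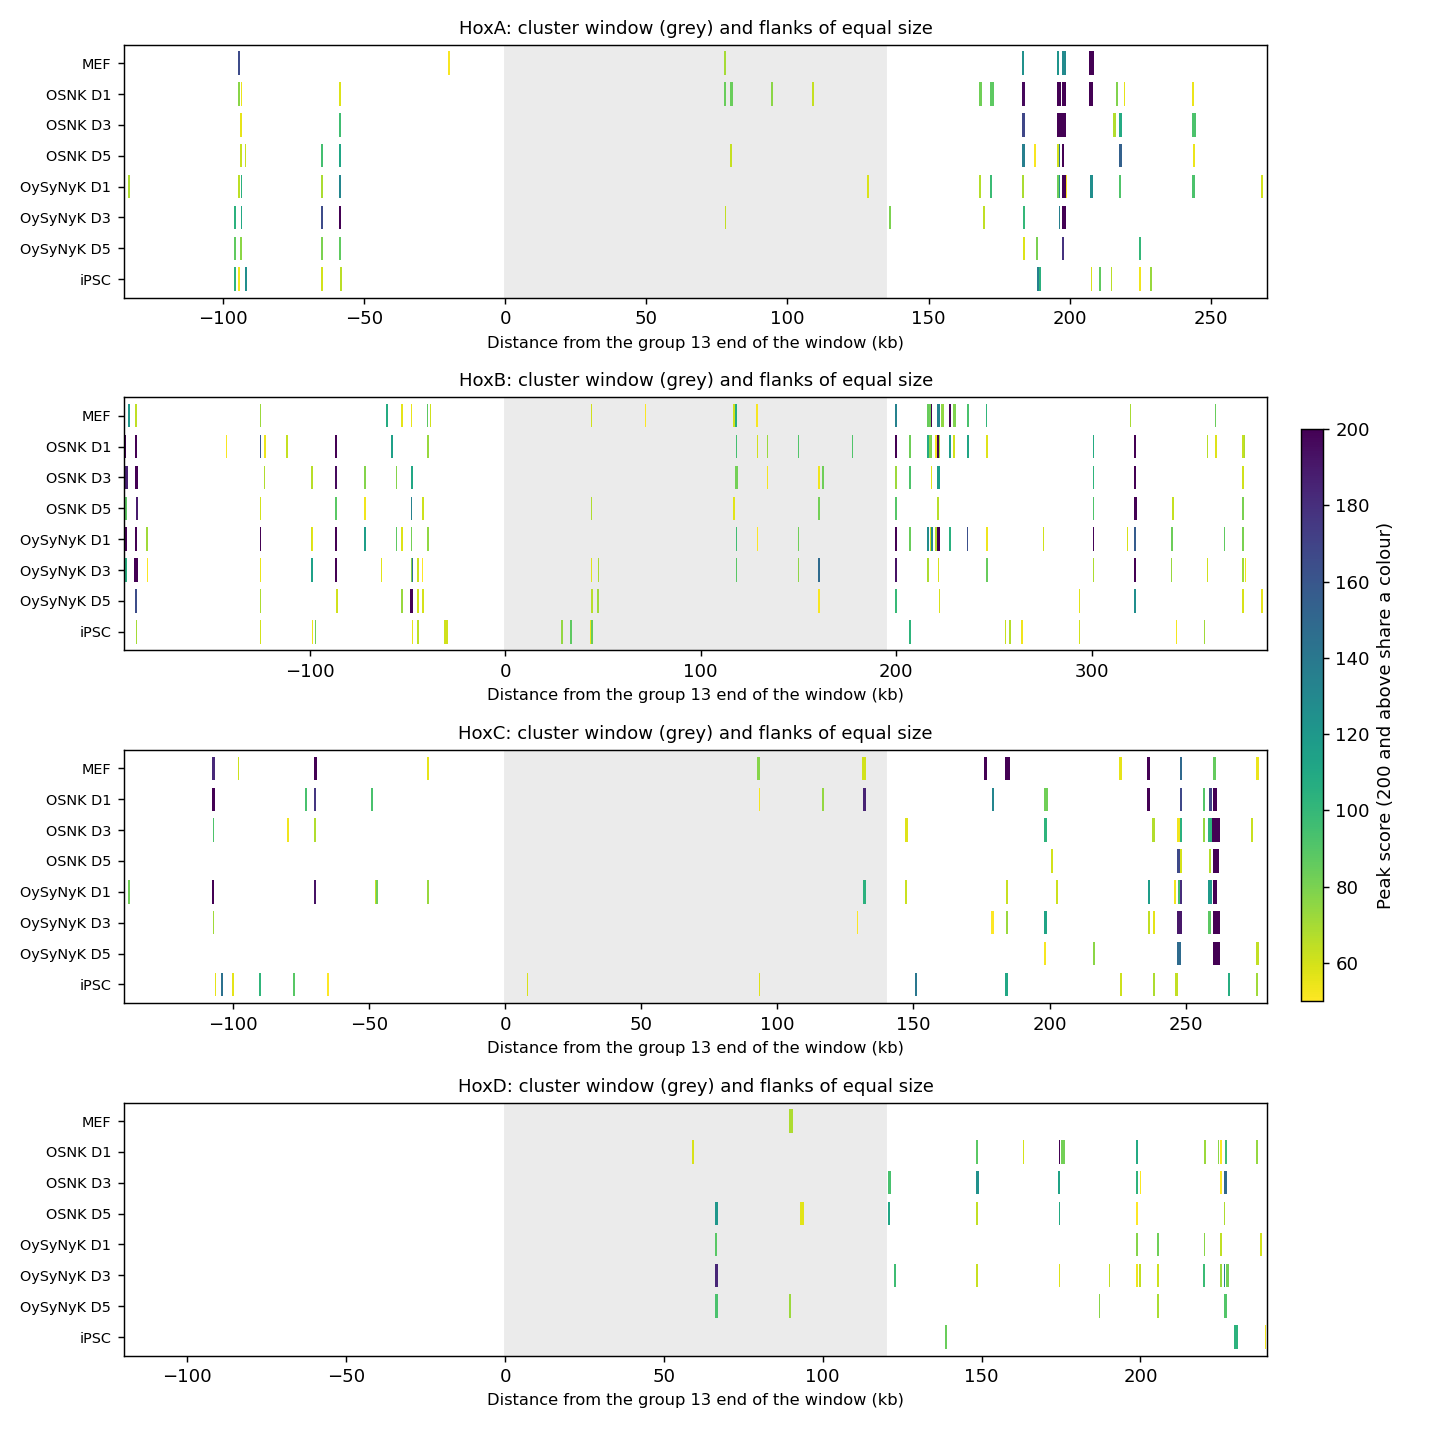
Positions of all peaks in the 4 cluster windows (grey) and their flanks, in kb from the group 13 end of the window (horizontal axis), with 1 row per library and darker colours for higher scores. The windows hold few and mostly pale marks, and the group 13 side of HoxD is blank in all 8 libraries up to 58.9 kb into the window.

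With each library counted, the fewest peaks of HoxA, HoxC and HoxD lay towards the group 13 end, while HoxB had similar numbers along its length. These counts include the same site once for each library that had it. As merged regions, the group 13, middle and group 1 segments held 0, 2 and 3 in HoxA and 5, 4 and 5 in HoxB. They held 1, 1 and 3 in HoxC, where the first 2 segments were level, and 0, 2 and 2 in HoxD. Gene order was taken from the RefSeq table of GRCm38, in which all 38 genes were found, and each window was split into 3 equal segments. The group 13 segment held 11 of the 57 peaks, the middle segment 24 and the segment nearest to group 1 (group 4 in HoxC) 22. In HoxA and HoxD the group 13 segment had no peak in any of the 8 libraries, and in HoxC it had 1, in iPSC. The other 10 peaks of such segments were in HoxB, which had 11 in its middle segment and 11 in its group 1 segment. Of the 6 iPSC peaks, 5 lay in a group 13 segment, 4 of them in HoxB, and none in a group 1 segment. Of the 9 MEF peaks, 1 did, 6 lay in middle segments and 2 in group 1 segments. The HoxC region shared by MEF and iPSC was centred 93.1 kb from the group 13 end, close to the border of the middle segment.

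**Figure D5:**
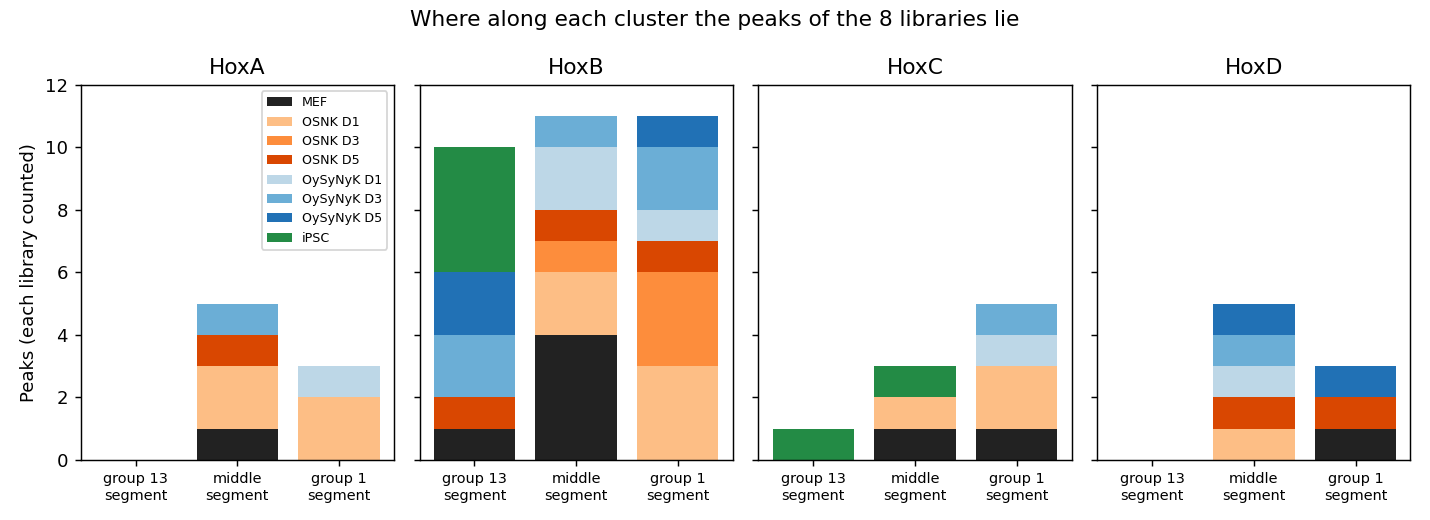
Number of peaks (vertical axis, each library counted, coloured by library) in the group 13, middle and group 1 segments of each cluster. The group 13 segments of HoxA and HoxD have no bar, and that of HoxB has 10 peaks, 4 of them from iPSC.

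Long stretches had no peak in any library. The longest inside HoxA was 77.5 kb, from the group 13 end of the window inward, and with the DNA beyond that end it ran over 97.1 kb, at chr6:52147455-52244532. In HoxC it was 84.0 kb, at chr15:102748423-102832462, which is 60.0% of the window. In HoxD the first 58.9 kb were free, and the stretch continued outward on the side of Evx2, the homeobox gene beyond Hoxd13, to 187 kb in all, at chr2:74366881-74553937. HoxB had the shortest, 44.4 kb at chr11:96117360-96161720. Over the genome the median distance between neighbouring peak regions was 2.73 kb. Stretches as long as these full ones were 0.579% (HoxD) to 3.33% (HoxB) of all 222770 such distances, but they held 25.7% to 44.4% of the sequence.

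The end states of reprogramming were compared first. Peaks covered 1.50% of the 4 clusters together in MEF and 0.489% in iPSC, a difference of -1.01 percentage points with a 95% counting interval of -2.10 to 0.0840. All 4 clusters were at least 2-fold lower in iPSC than in MEF, and so were 55.4% of the genome windows with a peak in either library. No cluster was at least 2-fold higher, against 15.6% of windows. The 2-fold count was 2 of 4 with equal numbers of peaks per library, 2 of 4 with peaks set to 500 bp and 1 of 4 with scores of at least 100. At that minimum score 3 clusters had no MEF peak, so they could not be called lower. With equal numbers of peaks, the 4 clusters held 6 peaks in MEF and 6 in iPSC. Of the 9 MEF peaks, 2 were overlapped in iPSC, which is 22.2% (95% interval 2.81 to 60.0), against 17.4% of all MEF peaks.

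The days were compared within each method. With OSNK, cover of the 4 clusters together was 1.66%, 0.823% and 0.770% from the earliest to the latest day. For OySyNyK the values were 0.738%, 0.882% and 0.647%. The D5 minus D1 difference for OSNK was -0.89 percentage points, with a 95% counting interval of -2.01 to 0.233. The OySyNyK difference was -0.0907 points (-0.939 to 0.757). From D1 to D5, HoxA and HoxC were at least 2-fold lower with OSNK, against 43.5% of windows, and HoxD was at least 2-fold higher, against 3.96%. The same 2 clusters were lower with OySyNyK, against 43.6% of windows, and HoxD was again higher, against 5.31%. HoxD had 1 peak at D1 and 2 at D5 in each method. With windows narrowed by 10 kb at each end, 0 of 4 clusters were 2-fold lower with OySyNyK. HoxA and HoxC then had no peak at OySyNyK D1, so they could not be called lower. With equal numbers of peaks 1 of 4 was lower in each method. There 3 clusters were empty at OSNK D1 and 2 at OySyNyK D1, and these could not be called lower either. With equal numbers of peaks the OSNK difference was 0.0831 percentage points, the opposite sign, as only 1 of the 13 peaks of OSNK D1 was among the best-scoring 54938.

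The MEF peaks of the clusters were then followed. At D1, 5 of the 9 were overlapped with OSNK, which is 55.6% (95% interval 21.2 to 86.3), and 3 of 9 with OySyNyK, 33.3% (7.49 to 70.1), against 74.5% and 70.4% of all MEF peaks. At D5, 2 of 9 were overlapped with each method, 22.2% (2.81 to 60.0), against 41.3% and 36.3%. The genome's share lay inside the interval of the 9 peaks except at OSNK D3 (1 of 9, 95% interval 0.281 to 48.2, against 50.5%) and at OySyNyK D1. Over all libraries, 14 of the 28 Hox regions, 50.0%, were in a single library, against 39.1% of the 222790 regions of the series. None was in all 8, against 2.58%, and the most widely shared was in 5. Regions in neither end state numbered 15 of 28, or 53.6%, against 53.5% of the series' regions. The 9 MEF peaks had a median score of 61.5, against 103 over the whole MEF list. The comparisons with all MEF peaks and with all regions were not matched for score.

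The methods were then set side by side on each day. At D1 the 4 clusters had 13 OSNK peaks (95% interval 6.92 to 22.2). OySyNyK had 6 (2.20 to 13.1), and its cover minus that of OSNK was -0.92 percentage points (-2.04 to 0.198). HoxA alone was at least 2-fold lower, 1 of 4 clusters against 28.5% of windows, and none was higher, against 3.3%. At D3 the peaks were 4 (1.09 to 10.2) and 8 (3.45 to 15.8) and the difference in cover 0.0592 points. HoxA, HoxC and HoxD, each empty at OSNK D3, had 1 peak each with OySyNyK and so counted as higher, against 8.42% of windows. None was lower at D3, against 33.5%. At D5 the difference was -0.123 points, HoxA was lower, on 1 peak against none and with 35% of windows lower, and none was higher, against 9.34%. HoxC was empty in both D5 libraries. The intervals of the peak numbers overlapped between the methods on each day.

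The flanks differed from side to side. Beside Hoxd1, on the side of Mtx2, a mitochondrial import gene, the 120-kb flank had no peak in MEF. The same was true of 37.1% of genome windows of this length, and the whole MEF list held 65776 peaks against 116302 at OSNK D1. The OSNK days had 10, 7 and 5 peaks there, covering 5.22%, 4.40% and 1.96%. The OySyNyK days had 5, 11 and 3, covering 2.12%, 4.93% and 1.78%. iPSC had 3 peaks covering 1.63%. The highest-scoring of its 20 regions, chr2:74669086-74669709, reached 257 at OSNK D1. The opposite flank of HoxD, beyond Hoxd13, was without peaks in every library. HoxC showed the same lean. The flank on the side of Hoxc4 and Smug1, a DNA repair glycosylase, had 3.61% to 7.91% cover in the 8 libraries. The flank beyond Hoxc13 had 0% to 2.17%. HoxB had no steady lean. Its group 1 side flank had more cover than its group 13 side flank in MEF (5.42% against 3.02%) and at D1 with both methods. It had less at D3 and D5 with both methods and in iPSC (2.35% against 2.94%). Beside HoxA, the flank on the side of Skap2, an adaptor protein gene, held the highest score of all flanks, 706 at OSNK D1, at chr6:52026425-52027969.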

How the data were processed

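5hmC was measured in 8 mouse libraries, 1 per group, by glucosylation, biotin capture and sequencing, per the labels' protocols. Each library has its own deposited peak list. Per the submitters' processing notes the tools were Bowtie and MACS. Their versions, settings and any control are not given here by any source used. Those notes name hg18 and NCBI36, which are human builds. The lists are of mouse chromosomes and were taken as mm9, the build of the windows, which no source states. Column 5 of the deposited lists is a score, in MACS -10 times log10 of the peak's p-value, with a minimum of 50 (1e-05). Start and end are as deposited, printed counted from 1. Libraries were not normalized to each other and read depth is unknown. The lists held 54938 (iPSC) to 116302 (OSNK D1) peaks, covering 1.56% to 3.72% of the 2637 Mb spanned by peaks, and this moves every cover value.

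Peaks overlapping a window by at least 1 bp were counted. None crossed a window edge. Cover was tested on simulated lists of known cover. The software was scipy 1.17.1, pandas 2.3.3 and numpy 2.4.6 under Python 3.11.15. bedtools 2.31.1 gave the same 64 values. Genome windows were tiled without overlap at each of the 4 cluster lengths. Windows with a peak in neither library were left out of comparisons between libraries, and windows at chromosome ends or without a peak in either neighbour out of the comparison with flanks. A cluster or window counts as higher or lower past a 2-fold difference in cover. With 1 library a group there is no test and no p-value. Intervals are 95% and exact for peak numbers and shares. For cover they are normal, from the summed squared peak widths, and all cover counting error only. Regions are peaks of the 8 lists merged where they share a base. Those named were, per cluster, the highest score, the largest fall and rise from MEF to iPSC, regions in all libraries and regions on all days of 1 method only; the last 2 kinds had no member. Other regions named were chosen after their values were seen. The members and lists were chosen with earlier results of these data known. Figures were drawn with matplotlib 3.10.9.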

Additional observations from a re-analysis of the deposited data

Results flagged for a closer look

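From D1 to D5, HoxB cover changed by -0.825 percentage points with OSNK and by 0.0908 with OySyNyK, opposite directions in the only library of each group. The group 13 side flank of HoxA, towards Evx1, changed by 0.183 points with OSNK and -0.478 with OySyNyK. The difference between the methods was not tested in either case, since each group has 1 library. In HoxB the OSNK change was 5 peaks against 3, and OySyNyK had 3 peaks on both days. The directions were not opposite under all alternatives. With equal numbers of peaks HoxB changed by 0.382 points with OSNK and 0.358 with OySyNyK, and with widened windows by -0.809 and -0.0367.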

How the results depend on the processing

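Alternatives were a minimum score of 100, lists cut to equal length (54938 peaks, best scores first), peaks of 500 bp, peaks within 1 kb merged, windows narrowed or widened by 10 kb at each end, a single flank, and an overlap of at least 50%. Cover of the 4 clusters relative to the whole library, 0.345 with all peaks, was 0.0855 with a score of at least 100 and 0.237 with equal numbers. The ratio to the flanks, 0.315, became 0.0894 under the minimum score of 100. With that score none of the MEF peaks was overlapped in iPSC (0%), but 1 MEF peak was left. The highest ratio to the flanks in its 8 alternatives was 0.381. For single clusters, the ranges of the flank ratios stand beside their values. Their ratios to the whole library ran from 0 to 0.228 for HoxA and 0.0821 to 0.632 for HoxB. They ran from 0.141 to 0.278 for HoxC and 0.123 to 0.312 for HoxD. HoxB was also at least 2-fold below the library with a score of at least 100 (0.0821) and with equal numbers (0.391). For HoxD alone, the flank at lower coordinates holds no peak and gave no ratio. The iPSC minus MEF difference in cover of the 4 clusters was below 0 in all 6, from -1.002 to -0.155. The differences between days and methods had the opposite sign in at least 1 of 6 alternatives each, and their intervals include 0. The minimum score left 6 of the 57 peaks and equal numbers 27. The causes were not tested. With 1 library a group none could be left out. Read depth was unknown, so an empty window is a window without a called peak. No paired analysis was possible because every group has 1 library.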
